A study of Rattus norvegicus with 6 samples.

Results

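The genes of the rat major histocompatibility complex (MHC), called RT1, and of the antigen presentation machinery were followed in primary microglia stimulated with lipopolysaccharide (LPS), without or with siponimod. The members were every listed gene whose name starts with RT1-, together with B2m, Tap1, Tap2, Tapbp, Tapbpl, Psmb8, Psmb9, Psmb10, Erap1, Nlrc5, Ciita and Cd74. Of 23139 listed genes, 40 were members, 29 of them RT1 genes (20 of class I and 9 of class II) and 11 of the 12 genes given by name. Tapbpl was not analysed here. Counted by pathway, 29 members belonged to class I presentation and 11 to class II presentation.

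Microglia, the resident macrophages of the brain, were shaken off mixed cultures from cortices of newborn Wistar rats (postnatal day 1) and enriched with magnetic beads against CD11b/c, a surface marker of myeloid cells. In the group called LPS, cells received 100 ng/ml LPS and the solvent DMSO. In the group called LPS/siponimod, cells received 100 ng/ml LPS and 50 µM siponimod, a modulator of sphingosine-1-phosphate receptors. Each group held 3 biological replicates, and no unstimulated cells and no cells with siponimod alone are among the 6 libraries analysed here, so that every value compares LPS/siponimod with LPS. Polyadenylated RNA was sequenced, and the time between stimulation and RNA collection for sequencing is not given in the sources used here. Total counts per library lay between 38080379 and 46643859. Levels are given as CPM (a gene's count relative to the library's total, scaled by edgeR's TMM factors), and 11977 genes passed the filter on low counts and were tested. A differentially expressed gene (DEG) had an adjusted p of at most 0.05 in edgeR's quasi-likelihood test and a fold change of at least 1.5, and a log2 fold change (log2 FC) below 0 means a lower level with LPS/siponimod. An exact permutation test of 3 against 3 libraries cannot go below p = 0.1.

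MHC class I molecules are found on nearly all nucleated cells and show peptides from cytosolic proteins to CD8 T cells. Their heavy chain pairs with beta-2-microglobulin (B2m). The proteasome cuts the peptides, with special catalytic subunits (Psmb8, Psmb9, Psmb10) built in under inflammatory conditions, the Tap1/Tap2 transporter carries them into the endoplasmic reticulum, tapasin (Tapbp) loads them and Erap1 trims them, and Nlrc5 is the transactivator of class I genes. Class II molecules are pairs of an alpha and a beta chain that show peptides from endosomes to CD4 T cells. They are kept by professional antigen presenting cells and can be induced on microglia. Cd74 is the invariant chain that guards their groove, RT1-DM exchanges the peptide, RT1-DO holds RT1-DM back, and Ciita is the transactivator of class II genes. Non-classical class I molecules (class Ib) have restricted ligands and are read by natural killer cells or by unusual T cells.

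Promoter sequences show what the genes of this cluster share next to their start sites and where they part. RefSeq promoters of the rat assembly GRCr8 were found for 31 of the 40 members. Of each of 7 genes that the results turn on, the 250 bases before the start site are shown 5′ to 3′ on the gene's strand. RT1-CE16 and RT1-CE11 stand for the RT1-CE genes, RT1-M3-1, RT1-N3 and RT1-S3 for the class Ib genes, RT1-DMa for the peptide exchange factor and RT1-Da for the antigen presenting class II chains. Capitals mark ATTGG on either strand (the CCAAT box), the core of the class II X box (CTAG and ACAG with 2 bases between), TTTCACTT and ATACTNATG.
RT1-CE16 (chr20:3265444-3265693, minus strand): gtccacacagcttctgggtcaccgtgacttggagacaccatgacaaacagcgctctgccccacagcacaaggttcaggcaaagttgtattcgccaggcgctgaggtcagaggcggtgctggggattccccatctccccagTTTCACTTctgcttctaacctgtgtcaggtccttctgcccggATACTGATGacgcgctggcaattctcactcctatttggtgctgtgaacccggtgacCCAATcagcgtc
RT1-CE11 (chr20:3363199-3363448, minus strand): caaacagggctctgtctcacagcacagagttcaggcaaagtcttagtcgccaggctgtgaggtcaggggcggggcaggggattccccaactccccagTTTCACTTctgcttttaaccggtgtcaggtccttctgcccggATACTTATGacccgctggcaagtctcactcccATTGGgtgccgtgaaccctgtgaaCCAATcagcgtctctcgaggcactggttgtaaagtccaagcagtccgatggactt
RT1-M3-1 (chr20:1333367-1333616, minus strand): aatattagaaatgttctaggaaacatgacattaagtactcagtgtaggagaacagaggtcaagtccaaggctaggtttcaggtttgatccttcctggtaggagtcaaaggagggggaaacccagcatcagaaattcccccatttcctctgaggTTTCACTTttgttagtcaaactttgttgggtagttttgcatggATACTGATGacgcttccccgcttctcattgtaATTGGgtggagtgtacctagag
RT1-N3 (chr20:2666239-2666488, plus strand): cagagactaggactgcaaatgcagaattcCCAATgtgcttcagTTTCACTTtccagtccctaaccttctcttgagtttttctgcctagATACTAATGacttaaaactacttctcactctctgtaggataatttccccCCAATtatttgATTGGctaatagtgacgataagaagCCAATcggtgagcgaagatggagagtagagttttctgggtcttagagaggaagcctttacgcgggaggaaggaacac
RT1-S3 (chr20:2675278-2675527, plus strand): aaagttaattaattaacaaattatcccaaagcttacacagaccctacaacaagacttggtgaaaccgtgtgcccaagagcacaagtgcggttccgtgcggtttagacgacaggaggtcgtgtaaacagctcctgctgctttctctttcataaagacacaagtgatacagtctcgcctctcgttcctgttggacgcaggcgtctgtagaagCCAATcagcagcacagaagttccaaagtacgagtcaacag
RT1-DMa (chr20:4712336-4712585, minus strand): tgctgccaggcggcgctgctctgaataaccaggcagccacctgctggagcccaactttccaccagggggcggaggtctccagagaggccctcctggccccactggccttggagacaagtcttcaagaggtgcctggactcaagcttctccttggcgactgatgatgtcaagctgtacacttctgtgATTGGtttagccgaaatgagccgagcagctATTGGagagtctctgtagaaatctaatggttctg
RT1-Da (chr20:4515165-4515414, plus strand): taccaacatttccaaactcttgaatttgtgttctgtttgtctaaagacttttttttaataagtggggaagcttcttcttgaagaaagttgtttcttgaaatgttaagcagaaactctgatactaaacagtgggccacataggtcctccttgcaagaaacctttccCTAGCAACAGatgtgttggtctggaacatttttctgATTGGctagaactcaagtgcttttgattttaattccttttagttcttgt
The assembly used for mapping was another one (mRatBN7.2), and these positions belong to GRCr8 only. On either strand of these 250 bases, ATTGG stood in 21 of 31 members and in 34.0% of all 33469 promoters. The ATACTNATG stretch, which was read off these sequences after they were seen, stood in 4 members (RT1-CE11, RT1-CE16, RT1-M3-1 and RT1-N3) and in 0.454% of all promoters. TTTCACTT, also chosen after the sequences were seen, stood in 8 members and in 1.49% of promoters. The interferon response core (GAAA and GAAA with 2 bases between), which overlaps TTTCACTT in all 4 members that hold both (Psmb10, RT1-N3, Tap2 and Tapbp), stood in 7 members (B2m, Psmb10, RT1-N3, RT1-S3, Tap1, Tap2 and Tapbp) and in 3.41% of promoters. The kappa-B-like motif (GGG, T and CC with 2 bases between each) stood in 10 members and in 15.0% of promoters, the X box core only in RT1-Da among members and in 0.980% of promoters, and TGACGTCA only in RT1-Ba among members and in 1.59% of promoters. Several of these genes are near-identical copies, so that their matches are not independent, and a match is a description of letters.

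None of the 6 RT1-CE genes was a DEG, whereas 3 of the 10 other RT1 class I genes tested were lower DEGs (RT1-N3, RT1-S3 and RT1-M3-1), as were the immunoproteasome subunits Psmb8 and Psmb9 and the transactivator Nlrc5. Of the 29 class I members, 25 were tested, 17 of them with a log2 FC below 0, and 6 (24.0%) were lower DEGs and 0 higher DEGs. Among all genes tested, 11.7% were lower DEGs and 13.6% higher DEGs. The median log2 FC was -0.34 over the tested class I members and -0.02 over all genes tested. Over the 16 tested RT1 genes of class I it was -0.06, and it lay between -0.35 (without LPS replicate 2) and 0.06 (without LPS replicate 1) with single libraries left out. The difference between the RT1-CE genes and the other RT1 genes of class I was not tested. Of the 11 class II members, 9 were tested, all with a log2 FC below 0, and 1 (11.1%, RT1-DMa) was a lower DEG, a share close to that of all genes. The median log2 FC was -0.81 over the tested class II members and -0.90 over the 8 tested RT1 genes of class II. The lower class II median came with lower counts and larger errors, and the difference between the classes was not tested. In 10 class I and 2 class II members among those tested, every LPS/siponimod library lay below every LPS library, which held for 24.0% of all genes, and the reverse order, found for 25.3% of all genes, held for no tested member. A fit with a block for the replicate number gave 8 class I and 2 class II members as lower DEGs, against 16.4% of all genes.

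**Figure D1:**
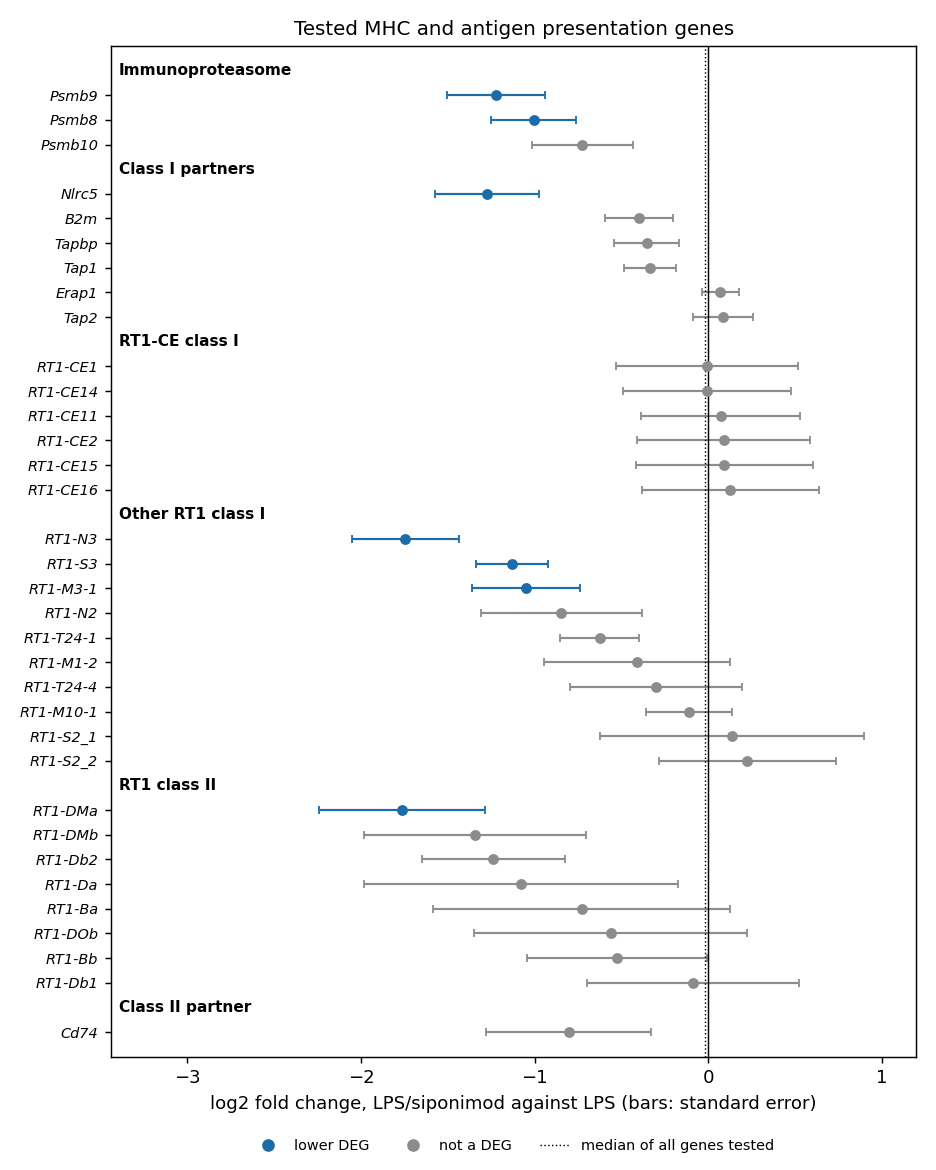
Log2 fold change of LPS/siponimod against LPS for the 34 tested members, by role; points are edgeR estimates, bars the standard error, blue points lower DEGs and the dotted line the median of all genes tested. The RT1-CE genes sit at 0, while RT1-N3, RT1-S3 and RT1-M3-1 lie beyond -1 and the class II genes lie to the left with wide bars.

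The RNA came from whole cultures, so that fewer cells of a type and less RNA per cell cannot be told apart. The 12 microglia and macrophage markers, all tested, summed to 9700, 7880 and 5170 CPM in LPS replicates 1, 2 and 3 and to 4140, 5120 and 3020 CPM with LPS/siponimod, with Csf1r the most abundant. Of these markers 3 were lower DEGs (Aif1, Itgam and Cx3cr1), 0 were higher and none was at 0. The summed markers were lower with LPS/siponimod, as the class I DEGs were, and the part of this in the class I and class II values was not tested.

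RT1-S3, a class Ib gene for which RefSeq gives the synonym H2-T23, measured 1231, 993.2 and 995.8 CPM in LPS replicates 1, 2 and 3, and 416.3, 603.7 and 451.7 CPM in LPS/siponimod replicates 1, 2 and 3. Its groups did not overlap, and the LPS/siponimod library nearest to LPS was replicate 2. The mean fell from 1073 ± 136.8 to 490.6 ± 99.57 CPM (SD, n = 3 each), a 2.19-fold lower level (log2 FC -1.13, SE 0.21, adjusted p = 0.0145 in edgeR's quasi-likelihood test). RT1-N3, another class Ib gene, measured 240.0, 175 and 305.7 CPM with LPS and 47.19, 81.69 and 86.1 CPM with LPS/siponimod. Every LPS/siponimod library held less than the lowest LPS library. From 240.3 ± 65.37 to 71.66 ± 21.31 CPM (SD, n = 3 each), RT1-N3 had the largest estimated change of the class I members (log2 FC -1.75, SE 0.31, adjusted p = 0.0134). RT1-M3-1, with the RefSeq synonym H2-M3, whose mouse protein presents peptides that begin with N-formylmethionine, measured 25.87, 25.77 and 13.07 CPM with LPS and 9.424, 13.01 and 8.819 CPM with LPS/siponimod. LPS replicate 3 lay only just above LPS/siponimod replicate 2, and the call was near the threshold (log2 FC -1.05, SE 0.31, adjusted p = 0.0493). RT1-M3-1 was no DEG with limma-voom (adjusted p = 0.0614) or without the filter on low counts (0.0653).

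RT1-T24-1 measured 474.3, 350.7 and 274.1 CPM with LPS and 252.1, 252.5 and 208.5 CPM with LPS/siponimod. Its groups did not overlap but lay close, and it missed the threshold (log2 FC -0.62, SE 0.23, adjusted p = 0.0846) and passed it with the replicate block (log2 FC -0.59, adjusted p = 0.0423) and with DESeq2 (0.0355). RT1-N2 measured 45.97, 17.67 and 42.65 CPM with LPS and 17.86, 11.92 and 29.38 CPM with LPS/siponimod. LPS replicate 2 lay among the LPS/siponimod libraries, and RT1-N2 was a DEG with the block only (log2 FC -0.85, adjusted p = 0.205 without the block and 0.0353 with it). RT1-T24-4 measured 373.9, 132.4 and 372 CPM with LPS and 264, 127.2 and 322.6 CPM with LPS/siponimod. Replicate 2 was low in both groups (log2 FC -0.30, SE 0.50, adjusted p = 0.674). The remaining tested class Ib genes RT1-M1-2, RT1-M10-1, RT1-S2_1 and RT1-S2_2 had log2 FCs between -0.41 and 0.22, none of them a DEG. RT1-M1-4, RT1-M2, RT1-M5 and RT1-M6-2 were not tested, with 0 counts in every library for RT1-M1-4, at most 2 for RT1-M2, at most 1 for RT1-M5, and 8, 5 and 8 counts with LPS against 9, 17 and 9 with LPS/siponimod for RT1-M6-2.

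The RT1-CE genes showed larger differences between replicates than between groups. These are class I genes of the RT1-C/E region, whose number is known to differ between rat strains. RT1-CE16 measured 1584, 1919 and 708.7 CPM in LPS replicates 1, 2 and 3 and 1577, 2265 and 752.5 CPM in LPS/siponimod replicates 1, 2 and 3. Replicate 3 was the lowest and replicate 2 the highest in both groups, and the log2 FC of 0.13 (SE 0.51, adjusted p = 0.871) was small beside the spread within a group. RT1-CE11 showed another order, at 674, 266.1 and 707.7 CPM with LPS and 656.5, 331.8 and 743.7 CPM with LPS/siponimod, with replicate 2 low in both groups (log2 FC 0.07, SE 0.46, adjusted p = 0.919). RT1-CE2 (153.5, 55.72 and 154 CPM with LPS and 147.6, 65.34 and 173.2 CPM with LPS/siponimod) and RT1-CE14 (114.2, 43.99 and 124.3 CPM with LPS and 104.8, 50.26 and 126 CPM with LPS/siponimod) had the same order as RT1-CE11. Their log2 FCs were 0.09 (SE 0.50) and -0.01 (SE 0.48), with adjusted p-values of 0.909 and 0.992. RT1-CE1 and RT1-CE15 shared it as well, with log2 FCs of -0.01 and 0.09. These genes are close copies of each other, and how reads that match several genes were counted is not stated, so that the split of counts among them is uncertain.

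Same-numbered libraries of the RT1-CE genes differed little. The largest difference within a pair was 0.24 on the log2 scale for RT1-CE16, 0.32 for RT1-CE11, 0.23 for RT1-CE2, 0.19 for RT1-CE14, 0.35 for RT1-CE1 and 0.66 for RT1-CE15, which had the fewest counts. The level in replicate 2 divided by the mean of replicates 1 and 3 was 0.385 with LPS and 0.474 with LPS/siponimod for RT1-CE11, and 1.67 and 1.94 for RT1-CE16. RT1-T24-4 (0.355 and 0.434), RT1-N2 (0.399 and 0.505), RT1-M1-2 (0.34 and 0.47) and RT1-S2_1 (0.182 and 0.301) followed RT1-CE11, and RT1-S2_2 (1.71 and 2.56) followed RT1-CE16. The ratio of RT1-CE16 to RT1-CE11 counts was 2.35, 7.21 and 1.0 in LPS replicates 1, 2 and 3 against 2.4, 6.83 and 1.01 in LPS/siponimod replicates 1, 2 and 3, so that each replicate number carried its own ratio in both groups. Transcript length cancels when this ratio is compared between libraries but not when levels of the genes are compared. A range of at least 1 on the log2 scale among the LPS libraries with every same-numbered pair within 0.5 was found for 7 members (RT1-CE1, RT1-CE2, RT1-CE11, RT1-CE14, RT1-CE16, RT1-S2_2 and RT1-Db1) and for 0.918% of all genes tested. This pattern was noticed in the data and then counted in them. The pair differences used a prior count of 2, which shrinks differences at low counts, and the range did not. RT1-Db1 (largest pair difference 0.497, with 7 to 22 counts per library) and RT1-S2_2 (0.499) lay just under the limit of 0.5, so their place in it depends on this prior. The mapping genome comes from the Brown Norway strain and the cells from Wistar rats, whose RT1 alleles can differ, and the part of alleles and of read mapping in these ratios was not tested.

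**Figure D2:**
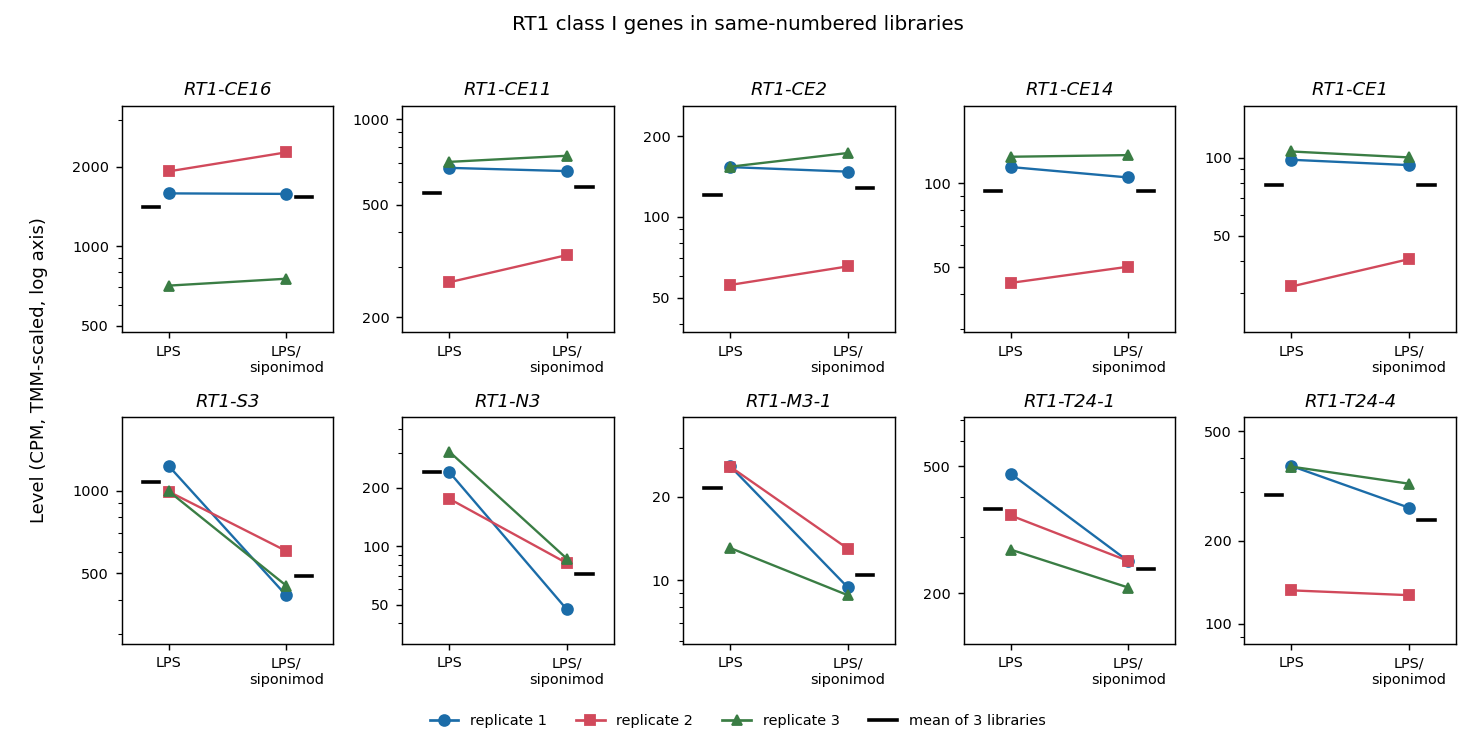
Levels of RT1 class I genes in CPM (TMM-scaled, log axes that differ between panels) in the LPS and LPS/siponimod libraries; lines join same-numbered replicates and black bars are means of 3 libraries. RT1-S3, RT1-N3 and RT1-T24-1 are lower with LPS/siponimod in every pair, while in the RT1-CE genes the lines stay flat and the replicates lie apart.

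Summed over genes, the counts of the 6 RT1-CE genes gave 2254 ± 415 CPM with LPS and 2417 ± 450.4 CPM with LPS/siponimod (SD, n = 3 each). The 14 other RT1 class I genes summed to 2430, 1734 and 2058 CPM with LPS and to 1039, 1138 and 1151 CPM with LPS/siponimod. Their sums did not overlap between groups, and the means were 2074 ± 348.2 and 1109 ± 61.25 CPM (SD, n = 3 each; log2 ratio -0.90). A sum is less open to the splitting of reads among copies within a subfamily, though not between the subfamilies. All 20 RT1 class I genes together measured 4328 ± 642.9 CPM with LPS and 3526 ± 428.1 CPM with LPS/siponimod, and their pairs differed by -0.48, -0.06 and -0.34 on the log2 scale.

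B2m, the invariant partner of the class I heavy chains, measured 4733, 3989 and 4167 CPM with LPS and 3461, 3414 and 2885 CPM with LPS/siponimod. Its groups did not overlap, yet the difference was under the fold of 1.5 and missed the threshold (log2 FC -0.40, SE 0.19, adjusted p = 0.164). The ratio of RT1-S3 to B2m counts was 0.26, 0.249 and 0.239 in the LPS libraries against 0.12, 0.177 and 0.157 in the LPS/siponimod libraries. The ratio was lower in every LPS/siponimod library (log2 difference -0.74, two-sided exact permutation p = 0.1, the smallest possible).

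Nlrc5 measured 230.0, 199.9 and 111.8 CPM with LPS and 62.06, 91.25 and 70.72 CPM with LPS/siponimod. LPS replicate 3 was the lowest of its group but lay above all LPS/siponimod libraries. The mean fell 2.42-fold from 180.5 ± 61.41 to 74.68 ± 15.0 CPM (SD, n = 3 each), with a log2 FC of -1.27 (SE 0.30, adjusted p = 0.027).

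All 3 catalytic subunits of the immunoproteasome had a log2 FC below 0, and 2 of them were lower DEGs. Psmb9 measured 158.8, 147.5 and 97.77 CPM with LPS and 49.15, 78.33 and 45.85 CPM with LPS/siponimod (log2 FC -1.22, SE 0.28, adjusted p = 0.0257). Psmb8 measured 215.1, 151.9 and 239.7 CPM with LPS and 93.1, 81.04 and 127.9 CPM with LPS/siponimod (log2 FC -1.01, SE 0.25, adjusted p = 0.0296). In both genes the groups did not overlap. Psmb10 measured 118, 124.9 and 65.02 CPM with LPS and 50.93, 77.73 and 57.49 CPM with LPS/siponimod. Here LPS replicate 3 lay among the LPS/siponimod libraries, and Psmb10 was no DEG (log2 FC -0.73, SE 0.29, adjusted p = 0.106). The constitutive subunits that these replace, Psmb5, Psmb6 and Psmb7, had log2 FCs of -0.20, -0.28 and -0.29, and none was a DEG. The ratio of Psmb8 to Psmb5 counts was 3.61, 2.33 and 3.36 in the LPS libraries against 1.6, 1.47 and 2.23 in the LPS/siponimod libraries, lower throughout (log2 difference -0.81, two-sided exact permutation p = 0.1). The ratio of Psmb9 to Psmb6 counts was 1.69, 1.33 and 0.806 in the LPS libraries against 0.527, 0.868 and 0.54 in the LPS/siponimod libraries, lower in every same-numbered pair, though LPS replicate 3 lay below LPS/siponimod replicate 2 (log2 difference -0.96, exact permutation p = 0.2 without regard to pairs). The ratio of Psmb10 to Psmb7 counts was 0.996, 0.959 and 0.399 in the LPS libraries against 0.449, 0.738 and 0.485 in the LPS/siponimod libraries. It was lower with LPS/siponimod in replicates 1 and 2 and higher in replicate 3 (log2 difference -0.42, exact permutation p = 0.4).

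None of the transport, loading and trimming genes Tap1, Tap2, Tapbp and Erap1 was a DEG. Tap1 measured 390.2, 335.3 and 339.9 CPM with LPS and 251.3, 313.9 and 279.1 CPM with LPS/siponimod, without overlap but under the fold of 1.5 (log2 FC -0.34, SE 0.15, adjusted p = 0.132). Tap2, which forms the transporter with Tap1, measured 106, 98.51 and 74.43 CPM with LPS and 96.2, 110.9 and 88.78 CPM with LPS/siponimod, with groups that overlapped (log2 FC 0.09, SE 0.17, adjusted p = 0.732). The ratio of Tap1 to Tap2 counts was 3.68, 3.4 and 4.57 in the LPS libraries against 2.61, 2.83 and 3.14 in the LPS/siponimod libraries, again without overlap (log2 difference -0.43, exact permutation p = 0.1). Tapbp measured 688.8, 511.4 and 468.6 CPM with LPS and 420.8, 455 and 428.8 CPM with LPS/siponimod, without overlap and lower in every pair (log2 FC -0.36, SE 0.19, adjusted p = 0.19). LPS replicate 1 was its highest library, and the log2 FC was -0.16 without it. Erap1 had the smallest spread of these genes, at 97.02, 87.69 and 86.1 CPM with LPS and 96.57, 90.67 and 96.89 CPM with LPS/siponimod (log2 FC 0.07, SE 0.11, adjusted p = 0.652).

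**Figure D3:**
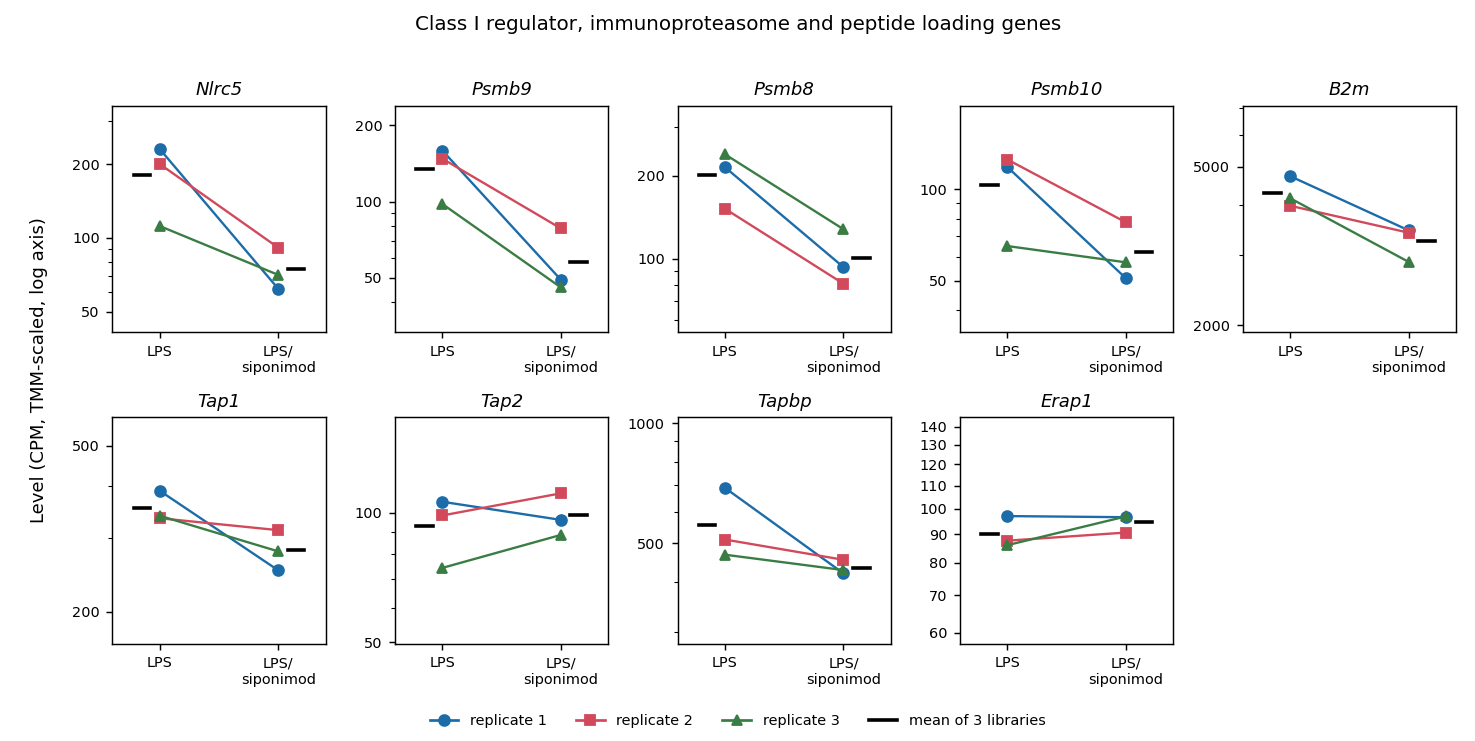
Levels of Nlrc5, the immunoproteasome subunits, B2m and the peptide loading genes in CPM (TMM-scaled, log axes that differ between panels); lines join same-numbered replicates and black bars are means of 3 libraries. Nlrc5, Psmb9, Psmb8, B2m, Tap1 and Tapbp are lower with LPS/siponimod in every pair without overlap between groups, Psmb10 in every pair with overlap, and Tap2 and Erap1 show neither.

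RT1-N3 was a lower DEG with each single library left out. RT1-S3 lost its call without LPS replicate 2 (adjusted p = 0.0591), LPS/siponimod replicate 1 (0.0723) or LPS/siponimod replicate 3 (0.0642). Nlrc5 and Psmb9 lost theirs without LPS replicate 1 (0.0782 and 0.0764), LPS replicate 2 (0.103 and 0.0982), LPS/siponimod replicate 1 (0.115 and 0.114) or LPS/siponimod replicate 3 (0.092 and 0.0863). Psmb8 was a DEG only without LPS/siponimod replicate 3 among these (0.0476, otherwise 0.0531 to 0.116), and RT1-M3-1 only without LPS replicate 3 (0.0138, otherwise 0.0597 to 0.173). Without LPS replicate 3, Psmb10 (adjusted p = 0.0221) and RT1-T24-1 (0.0299) were DEGs as well. The log2 FC of these genes kept its sign in every case.

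Among class II members, the clearest difference was in the peptide exchange factor. RT1-DMa, its alpha chain, measured 67.42, 82.97 and 29.71 CPM with LPS and 12.82, 27.37 and 12.84 CPM with LPS/siponimod. The groups came close between LPS replicate 3 and LPS/siponimod replicate 2 but did not overlap, and the mean went from 60.03 ± 27.38 to 17.68 ± 8.395 CPM (SD, n = 3 libraries each; log2 FC -1.76, SE 0.48, adjusted p = 0.0382). The call was lost without LPS replicate 1 (adjusted p = 0.102), LPS replicate 2 (0.132), LPS/siponimod replicate 1 (0.148) or LPS/siponimod replicate 3 (0.12). RT1-DMb, the beta chain, measured 61.84, 66.49 and 13.34 CPM with LPS and 15.64, 28.85 and 11.38 CPM with LPS/siponimod. LPS replicate 3 lay among the LPS/siponimod libraries, and RT1-DMb was a DEG only without it (log2 FC -1.34, SE 0.64, adjusted p = 0.158 with all libraries, and -1.78 and 0.0242 without LPS replicate 3). LPS replicate 3 was thus the lowest LPS library for both chains.

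RT1-Db2, a class II beta chain gene, measured 29.95, 30.47 and 23.26 CPM with LPS and 8.392, 19.98 and 7.089 CPM with LPS/siponimod. Its groups did not overlap, and it missed the threshold (log2 FC -1.24, SE 0.41, adjusted p = 0.067). It was a DEG with the replicate block (log2 FC -1.38, adjusted p = 0.0207), with DESeq2 (0.0142), with limma-voom (0.0372) and without LPS/siponimod replicate 2 (log2 FC -1.85, adjusted p = 0.00879). RT1-DMa, RT1-DMb and RT1-Db2 held most of the RT1 class II counts, which summed to 6003, 7033 and 2632 counts in LPS replicates 1, 2 and 3 and to 1811, 3459 and 1403 counts with LPS/siponimod. Scaled for depth, these sums were 138.4 ± 59.47 CPM with LPS and 50.21 ± 23.74 CPM with LPS/siponimod (SD, n = 3 each).

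Apart from RT1-Db2, the genes of the antigen presenting class II chains had few counts. RT1-Ba had 19, 8 and 54 counts with LPS against 10, 12 and 34 counts with LPS/siponimod, RT1-Bb 10, 12 and 24 against 9, 13 and 15, RT1-Da 19, 11 and 61 against 8, 8 and 33, and RT1-Db1 12, 8 and 16 against 10, 7 and 22. Together these 4 genes had 60, 39 and 155 counts with LPS and 37, 40 and 104 counts with LPS/siponimod. Replicate 3 was the highest in both groups, and none of the 4 genes was a DEG (log2 FCs between -1.08 and -0.09). That of RT1-Da, -1.08, was -0.05 without LPS replicate 3 and -2.19 without LPS/siponimod replicate 3. RT1-Db1 and RT1-Db2 are beta chain genes of similar sequence, and the counts that each received depend on how shared reads were divided. RT1-DOb, a chain of the factor that restrains RT1-DM, had 42, 61 and 11 counts with LPS against 61, 17 and 14 with LPS/siponimod and was no DEG (log2 FC -0.56). Its partner RT1-DOa had 0 counts in all libraries. By counting error alone this allows up to 3 counts, or 0.0643 to 0.0788 CPM before scaling by the TMM factors.

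Cd74 measured 173, 119 and 328 counts with LPS and 96, 128 and 187 counts with LPS/siponimod. At 5.525 ± 2.961 CPM with LPS and 3.163 ± 1.271 CPM with LPS/siponimod (SD, n = 3 each), its groups overlapped (log2 FC -0.80, SE 0.48, adjusted p = 0.239; log2 FC -0.29 without LPS replicate 3). Replicate 3 was again the highest in both groups. Ciita had 1, 1 and 7 counts with LPS and 0 in each LPS/siponimod library, and gives no fold at such counts. It did not pass the filter on low counts, and without the filter its p was 0.0363 before and 0.127 after adjustment.

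**Figure D4:**
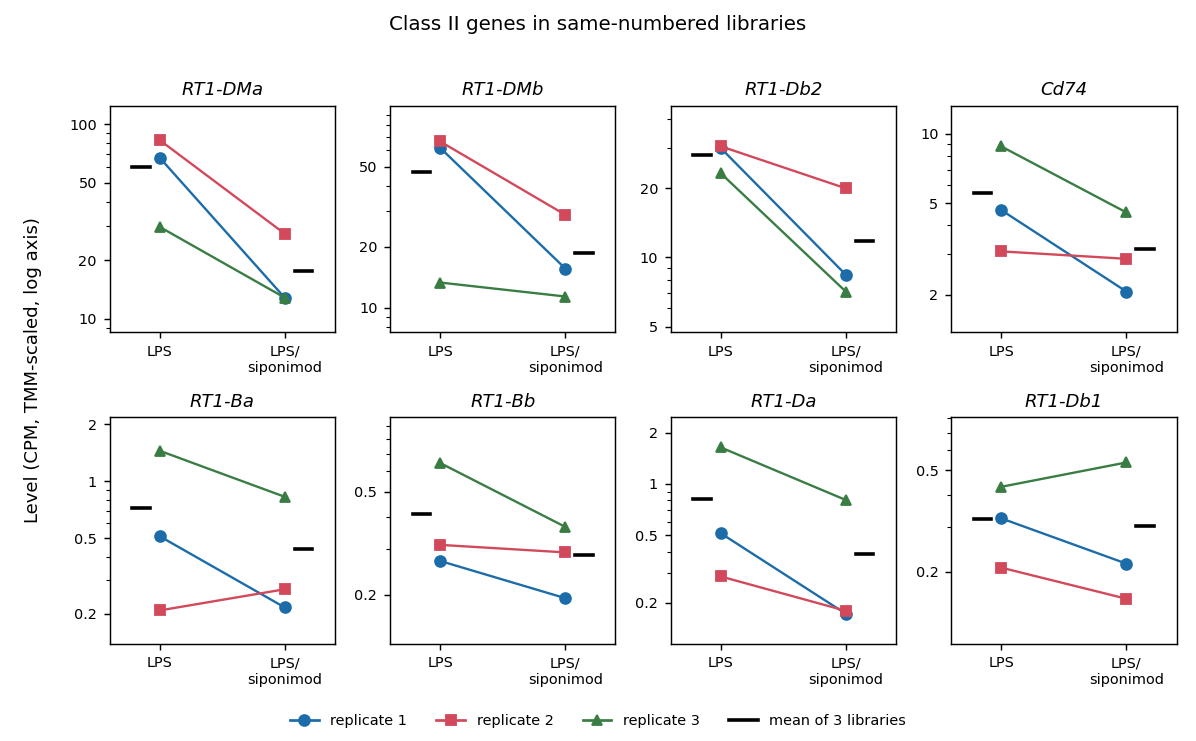
Levels of class II members in CPM (TMM-scaled, log axes that differ between panels); lines join same-numbered replicates and black bars are means of 3 libraries. RT1-DMa and RT1-Db2 separate the groups, whereas RT1-Da, RT1-Ba and Cd74 are highest in replicate 3 of both groups.

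Markers of other cells were measured beside the class II values. The 3 endothelial markers with a value, led by Cdh5, all tested and with 1 lower DEG (Flt1), summed to 165, 213 and 92.9 CPM in LPS replicates 1, 2 and 3 and to 38.2, 81.8 and 26.2 CPM with LPS/siponimod, with none at 0. The RT1 class II genes summed to 162, 182.5 and 70.78 CPM and to 38.97, 77.48 and 34.18 CPM in the same libraries, so that both sums had the same order of libraries within each group. The 6 dendritic cell markers summed to 5.53, 5.42 and 2.61 CPM in LPS replicates 1, 2 and 3 and to 2.6, 2.78 and 3.24 CPM with LPS/siponimod. Of these, 2 were tested and 1 (Itgae) was a lower DEG, Zbtb46 was the most abundant, none was at 0 in all libraries, and Flt3 had 3, 0 and 0 counts in the LPS libraries against 4, 5 and 4 in the LPS/siponimod libraries. The 5 B cell markers, of which 1 was tested and 0 were DEGs, summed to 16.1, 60.8 and 30.8 CPM with LPS and to 0.904, 22.1 and 1.02 CPM with LPS/siponimod. Nearly all of this was Cd79b. The 7 oligodendrocyte lineage markers, led by Mbp, of which 3 were tested and 1 (Mbp) was a higher DEG, summed to 5.34, 5.37 and 36 CPM with LPS and to 11.4, 10.3 and 22.6 CPM with LPS/siponimod, with none at 0 in all libraries. Like RT1-Ba, RT1-Da and Cd74, they were highest in replicate 3 of both groups, and LPS replicate 3 stood out by 515 Olig1 counts against 1 and 5 in the other LPS libraries. The 6 neuron markers, led by Tubb3, of which 2 were tested and 1 (Snap25) was a higher DEG, summed to 1.67, 1.06 and 11.3 CPM with LPS and to 6.39, 9.27 and 17 CPM with LPS/siponimod. The cells had been enriched with CD11b/c beads, a step meant to leave endothelial cells, oligodendrocytes and neurons behind but not dendritic cells, which carry these markers too. The part of any of these cells in the class II values was not tested.

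Other genes of the pathways, 45 in a list of known functions, gave 7 lower and 2 higher DEGs among 43 tested, with a median log2 FC of -0.28. The lower DEGs were 16.3% of those tested, near the 11.7% of all genes, and 13.6% of all genes were higher DEGs. The replicate block gave 12 lower and 2 higher DEGs, against 16.4% and 17.7% of all genes. The 5 that the block added were Rfx5, Irf8, Stat2, Socs1 and Lgmn, of which all but Socs1 were lower DEGs with DESeq2 as well. In class I loading and proteasome activation, 4 of 7 genes were lower DEGs and 0 higher. Pomp, the chaperone of proteasome assembly, went from 120.9 ± 6.661 to 66.64 ± 5.839 CPM (SD, n = 3 libraries each; log2 FC -0.86, SE 0.12, adjusted p = 0.00805). Psme1 and Psme2, the subunits of the proteasome activator that interferon induces, went from 199.8 ± 24.64 to 112.6 ± 14.39 CPM (log2 FC -0.83, adjusted p = 0.0157) and from 293.2 ± 20.45 to 179.6 ± 30.63 CPM (log2 FC -0.71, adjusted p = 0.0257). Calr, a chaperone of class I folding with many other client proteins, went from 2322 ± 282.9 to 1240.0 ± 160.5 CPM (log2 FC -0.91, adjusted p = 0.0215). In all of these genes the groups did not overlap. The chaperones Canx and Pdia3 of the same complex were no DEGs (log2 FCs 0.23 and -0.02). Of the class I-like genes outside the RT1 names, 2 of 4 were tested (Cd1d1 and Fcgrt) and 0 were DEGs.

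In class II processing and turnover, 1 of 10 genes was a lower and 1 a higher DEG. Marchf1, a membrane-bound ubiquitin ligase that removes class II molecules from the surface, measured 44.98, 34.93 and 10.65 CPM with LPS and 1.893, 3.718 and 2.607 CPM with LPS/siponimod. Its groups did not overlap, and its log2 FC of -3.46 (SE 0.59, adjusted p = 0.012) was larger in size than that of any member. Ctsd, a lysosomal protease, rose from 1770.0 ± 519.9 to 3855 ± 892.1 CPM (SD, n = 3 libraries each; log2 FC 1.12, SE 0.30, adjusted p = 0.0364), a call lost without the filter on low counts (0.0553). Ctss, the protease that trims the invariant chain, was no DEG (log2 FC -0.50, adjusted p = 0.166).

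Among 18 transcription factors of MHC genes and interferon signalling genes, 1 was a lower DEG (Jak2) and 1 a higher DEG (Ifngr1). The kinase gene Jak2 went from 112.7 ± 8.092 to 73.17 ± 8.481 CPM (log2 FC -0.62, SE 0.13, adjusted p = 0.0205), and Ifngr1, a chain of the interferon gamma receptor, from 158.5 ± 56.53 to 322.2 ± 69.14 CPM (log2 FC 1.02, SE 0.30, adjusted p = 0.0498). The call of Ifngr1 was lost without the filter on low counts (0.0693). With the block, 5 of the 18 genes were lower DEGs, against 16.4% of all genes. Irf8, a factor of myeloid cells, had the largest log2 FC of this list in size, with groups that overlapped (182, 133 and 38.02 CPM against 35.8, 45.94 and 18.93 CPM; log2 FC -1.81, SE 0.61, adjusted p = 0.0679). It was a DEG with the block (log2 FC -1.63, adjusted p = 0.0133) and with DESeq2 (0.00715), but not with the other settings that keep all libraries. Rfx5, a subunit of the complex that binds the X box of class I and class II promoters, just missed the threshold (log2 FC -0.83, SE 0.25, adjusted p = 0.051). It was a DEG with the block (adjusted p = 0.033), DESeq2 (0.0133), RLE (0.0499) and a mean of at least 1 CPM (0.0492). It was no DEG with limma-voom (0.0604) or without the filter on low counts (0.06915). Irf1 was no DEG (log2 FC 0.22, adjusted p = 0.631). Of the 3 co-stimulatory genes, Cd80 went from 27.04 ± 12.31 to 7.079 ± 1.941 CPM (log2 FC -1.93, SE 0.39, adjusted p = 0.0182), while Cd86 and Cd40 were no DEGs (log2 FCs -0.18 and -0.47). Pomp was a DEG with each single library left out. Psme1, Calr, Jak2, Psme2, Cd80, Marchf1, Ctsd and Ifngr1 each lost their call without LPS replicate 2, without LPS/siponimod replicate 1 and without LPS/siponimod replicate 3 (adjusted p from 0.0521 for Marchf1 to 0.16 for Ifngr1). Jak2 (0.0574) and Psme2 (0.0555) also lost it without LPS replicate 1, Ctsd (0.0679) and Ifngr1 (0.0611) without LPS replicate 3, and Ifngr1 without LPS/siponimod replicate 2 (0.127).

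**Figure D5:**
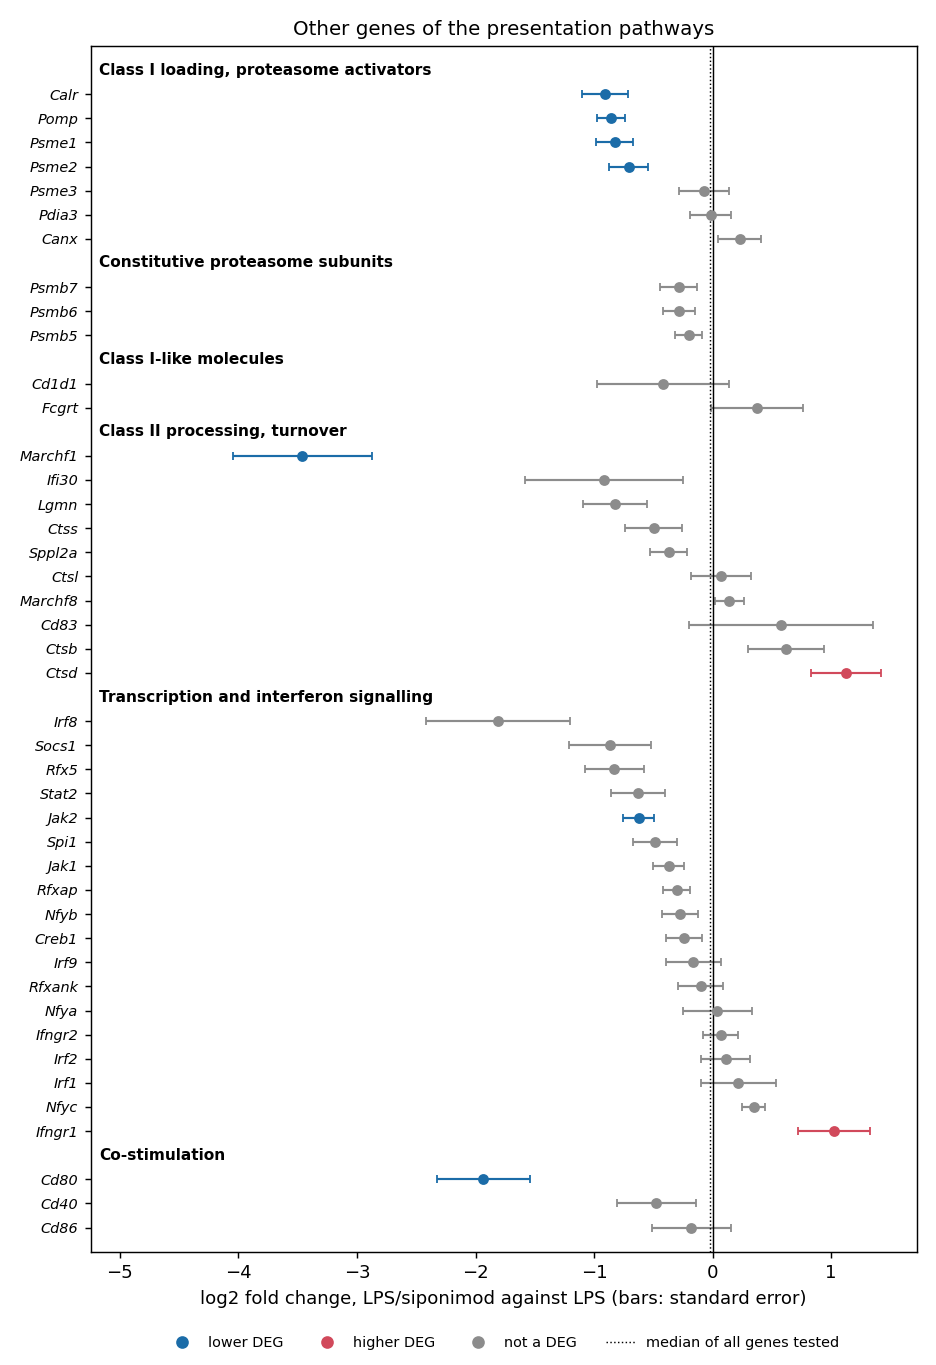
Log2 fold change of LPS/siponimod against LPS for the 43 tested pathway genes outside the members, by function; points are edgeR estimates, bars the standard error, blue points lower and red points higher DEGs, and the dotted line the median of all genes tested. Pomp, Psme1, Psme2 and Calr lie left of 0 with short bars, and Marchf1 lies farthest left at -3.46.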

How the data were processed

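Polyadenylated RNA of 6 libraries of primary rat microglia (3 LPS, 3 LPS/siponimod) was sequenced in single reads. The authors trimmed the reads, mapped them to the rat genome (mRatBN7.2) in the CLC Genomics Workbench and deposited total counts per gene without normalization; bcl2fastq (version 2.20.0.422) is named for base conversion. The handling of reads with several matches, of strand and of introns is not given in the sources used here, which leaves the split among RT1 copies uncertain. In 1 library 1 row without a name was dropped.

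The test was edgeR's quasi-likelihood test (edgeR 4.0.16, R 4.3.3) of the condition alone, after filterByExpr with a minimum count of 10 and TMM scaling, and p-values were adjusted over 11977 genes after Benjamini and Hochberg. Deviations from group means correlated at 0.42, 0.545 and 0.611 between same-numbered libraries and at most 0.0856 between others, so same-numbered libraries were taken as pairs, on these data alone. Pair differences use log2 CPM with a prior count of 2. Count ratios were compared by exact permutation on the log2 scale. Alternatives were RLE, DESeq2 (version 1.42.0), limma-voom (limma version 3.58.1), no filter, a mean of at least 1 CPM, the replicate block and each library left out. The fits were tested on simulated data. Floors (3 counts) cover counting error only, whereas the standard errors come from the quasi-likelihood fit and include the spread between libraries.

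The members and lists were chosen with earlier results of these data known. Named were the 12 members given by name, every tested class II RT1 gene, the 8 class I RT1 genes with the highest mean CPM, and per pathway group up to 2 genes per direction with the smallest adjusted p among DEGs. Outside this rule, RT1-M3-1, RT1-CE1, RT1-CE15, RT1-N2, the remaining class I RT1 genes, the untested members, Calr, Psme2, Canx, Pdia3, Cd1d1, Fcgrt, Ctss, Rfx5, Irf8, Stat2, Socs1, Lgmn, Irf1, Psmb5, Psmb6, Psmb7, Cd86, Cd40 and the marker genes were named after their values were seen, and the count ratios, the replicate-number pattern and 2 motifs were added then.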

Additional observations from a re-analysis of the deposited data

How the results depend on the processing

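The number of DEGs among all genes was 3036, and 651 to 3713 with single libraries left out. The 6 class I DEGs became 1 to 7, the 1 class II DEG became 0 to 2, and the 9 DEGs of the other pathway genes became 1 to 12, all fits with fewer samples. The class I count was 7 with DESeq2, 8 with the block and 5 with limma-voom or without the filter. The class II count was 2 with DESeq2, with limma-voom and with the replicate block, and the pathway count was 14 with the replicate block. The next tally covers the 26 tested members that the rule named, not the named pathway genes. Of those pathway genes, Ctsd and Ifngr1 lost their calls without the filter. For the 26 members, 151 values under the settings that keep all libraries gave 142 with the same direction and side of the threshold. Another 5 passed it only there and 4 had the other sign. The other sign occurred for RT1-CE14 (0.000923 with RLE, 0.000942 with DESeq2, 0.0298 with limma-voom and 0.0291 with the replicate block, against -0.00705) and, outside the rule for naming, for RT1-CE1 (0.0002195, 0.0002258, 0.0683 and 0.0672, against -0.00766). With single libraries left out, the log2 FC took both signs for Tap2 (-0.0491 to 0.203), RT1-Ba (-1.57 to 0.282), RT1-Db1 (-0.77 to 0.214), RT1-CE16 (-0.273 to 0.456), RT1-CE11 (-0.243 to 0.344), RT1-CE2 (-0.241 to 0.4), RT1-CE14 (-0.332 to 0.287), and outside the rule for RT1-CE1 (-0.368 to 0.298), RT1-CE15 (-0.267 to 0.41), RT1-M10-1 (-0.286 to 0.101), RT1-S2_1 (-0.31 to 0.747) and RT1-S2_2 (-0.384 to 0.54). None of them was a DEG in any of these fits, and the cause was not tested. Without a change of sign, it lay between -1.16 and -0.289 for Cd74, -2.19 and -0.0497 for RT1-Da, -1.48 and -0.0714 for RT1-DOb, -0.744 and -0.0353 for RT1-Bb, -0.633 and -0.00383 for RT1-T24-4, and -0.462 and -0.157 for Tapbp, also none of them a DEG. The median log2 FC of the class II RT1 genes tested was -0.904, -1.34 with a mean of at least 1 CPM, which removes genes with few counts, -1.46 for the summed genes and -0.522 without LPS replicate 3 (the lowest in size with 1 library left out). The calls that the block changed among members are those given for RT1-T24-1, RT1-N2 and RT1-Db2, and it changed no other. Low counts limit the precision of RT1-Ba, RT1-Bb, RT1-Da, RT1-Db1, RT1-DOb, Cd74 and Ciita, and with 3 replicates the p-values measure the spread between these libraries.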

Other observations

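Further cell type markers were measured. The 7 astrocyte markers summed to 42.2, 20.9 and 20.5 CPM in LPS replicates 1, 2 and 3 and to 27.3, 26.4 and 56.9 CPM with LPS/siponimod, with Slc1a3 the most abundant, Gjb6 at 0 in all libraries and 0 DEGs among 2 tested. The 6 fibroblast and mural markers summed to 6.04, 4.75 and 3.98 CPM with LPS and to 11.9, 4.64 and 8.65 CPM with LPS/siponimod, with Dcn a higher DEG among 5 tested. The 4 T and NK cell markers with a value summed to at most 2.7 CPM in any library, with Cd3e and Cd3g at 0. The 5 neutrophil markers summed to 2.29, 2.44 and 3.31 CPM with LPS and to 0.516, 0.694 and 0.658 CPM with LPS/siponimod, with S100a8 a lower DEG among 2 tested and Mpo and Elane at 0.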
